A study of Mus musculus with 9 samples.

Results

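The levels of 9 adipocyte transcripts were followed in bulk RNA-seq of mouse kidney. They are Adipoq, Cfd, Plin1, Plin4, Cidec, Fabp4, Retn, Lipe and Lep, which were chosen as a sign of fat that stays attached to a dissected kidney, and they make up 9 of the 54532 gene identifiers counted. All 9 were found by symbol and had reads in every library. The libraries carry no record of position, so whether the RNA came from around the kidney was not tested, and the genes are called adipocyte transcripts here.

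The study compared 3 groups of 3 kidney libraries from mice on the C57BL/6J background. The first group is wild type (WT). The second is Trex1-/- mice given PBS, the vehicle with Tween 80, and the third is Trex1-/- mice given SN-011, both for 2 weeks by daily injection into the peritoneum. TREX1 is a nuclease that clears DNA from the cytosol, and SN-011 blocks STING, which passes the alarm from cytosolic DNA sensing on to interferon genes. The Trex1-/- mice came from crosses of heterozygous animals and were a month old when dosing began, whereas the wild-type mice were bought. The study gives an age range in weeks for its purchased wild-type mice. Their age at harvest and the sex of all animals are not in the labels. Titles of the PBS libraries name the genotype alone, and their treatment comes from the protocol text. Trex1 had 0 counts in all 9 libraries, wild type included, so the counts do not check the genotype, which rests on the labels.

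White adipocytes store triglyceride in a large lipid droplet and release it as fatty acids when energy is needed. The droplet is coated by perilipins and enlarged by CIDE proteins, its triglyceride is cut by a chain of lipases that includes hormone-sensitive lipase, and fatty acids are carried in the cytosol by fatty acid binding proteins. Adipocytes also secrete adiponectin, leptin, resistin in mice, and adipsin, a serine protease of the alternative complement pathway. Fat lies around the kidney and in the renal sinus, and part of it can take on features of brown fat, which burns lipid for heat. Some of the 9 genes are also used elsewhere, and Fabp4 in particular is well known in capillary endothelium and macrophages.

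PPARgamma and C/EBPalpha are the main regulators of the adipocyte programme, so the start regions of the members were searched for their motifs. RefSeq (GRCm38.p6) windows from 250 bases before to 50 bases after the start were at hand for 8 of the 9 members, in 10 windows, and Fabp4 had none. Shown here are the stretches of Plin1, Cidec and Lep outside annotated exons, because these 3 genes held a C/EBP-type match. Capitals mark the matches, and each sequence reads 5′ to 3′ on the gene's strand.

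Plin1, chr7:79732904-79733026, minus strand: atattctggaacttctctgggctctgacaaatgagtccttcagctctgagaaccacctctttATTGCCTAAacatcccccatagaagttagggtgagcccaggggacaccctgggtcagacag
Cidec, chr6:113434765-113435014, minus strand: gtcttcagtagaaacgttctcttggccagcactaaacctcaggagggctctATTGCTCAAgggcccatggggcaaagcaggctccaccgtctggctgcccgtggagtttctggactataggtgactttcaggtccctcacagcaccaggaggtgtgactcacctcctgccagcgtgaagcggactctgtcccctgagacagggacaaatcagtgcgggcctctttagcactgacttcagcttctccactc
Lep, chr6:29059971-29060219, plus strand: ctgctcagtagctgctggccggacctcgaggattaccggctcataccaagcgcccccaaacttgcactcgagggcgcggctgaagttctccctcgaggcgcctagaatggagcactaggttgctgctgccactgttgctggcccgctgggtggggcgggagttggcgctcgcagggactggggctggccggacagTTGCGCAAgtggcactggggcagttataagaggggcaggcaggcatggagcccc

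The capitals in Plin1 and Cidec match the letters TTNNGCAAT on the reverse strand, at -188 and -199 from the start. Those in Lep match the palindrome TTGCGCAA, at -55. A second match to TTNNGCAAT in Plin1, at -59, lies in bases annotated as exon of other Plin1 transcripts and is not printed. On both strands, TTNNGCAAT was present in 2.18% of 32851 mouse windows of the same length and TTGCGCAA in 0.183%, and the 2 patterns can overlap. The letters AGGTCA, the site of many nuclear receptors, were in 16.3% of windows, and a direct repeat of it with 1 base between the copies, the PPAR-type DR1 element, was in 0.0396%. Neither was in a member's window. Members with a match (Plin1, Cidec, Lep) and without one (Adipoq, Cfd, Retn) are both found among the genes that varied most between libraries. Plin4 and Lipe, the searched members of narrower range, had no match. Whether a match and the spread are linked was not tested.

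Total counts ran from 16118813 to 21928965 per library. Kidney markers were abundant in every library, with the summed level of 10 kidney cell genes at 16976 to 20227 CPM (counts scaled to a common library size by TMM), led by Umod at a mean of 5389 CPM, Slc34a1 at 4978, Slc12a1 at 2103 and Lrp2 at 1879. Sex-linked reads split the groups unevenly. Y-linked genes summed to 153 to 188 CPM of the library total in WT replicate 3, all 3 PBS libraries and SN-011 replicate 2, and to at most 0.377 in the others, where Xist was at 434 to 503. No PBS library lacked Y-linked reads, so that the sex of the animals cannot be fully told apart from the group, and means by Y-linked reads are given for each member after the summed level.

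Adipocyte transcripts were a small part of the kidney RNA, and most of them differed several-fold between libraries of the same group. Read per exonic length, Cfd was at a mean of 57.8 RPKM (reads per kilobase of exon, scaled for depth as CPM is) over the 9 libraries. Fabp4 was at 25.1 RPKM, a figure that is too low for the spliced mRNA. Its annotated exons merge into 1 block of 4489 bases that covers the whole gene. RPKM therefore does not settle the order of Cfd and Fabp4, and in mean CPM Fabp4 was the higher, at 112 against 53.3. Cidec, Adipoq and Lipe lay at 6.20, 5.57 and 5.23 RPKM. Retn was at 3.42, Plin1 at 2.54 and Plin4 at 1.58 RPKM. Lep, at 0.117 RPKM, was at the edge of detection.

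Among the droplet proteins, Plin1 (chr7:79720218-79732903, minus strand) encodes perilipin 1, which guards the adipocyte droplet against lipases. Plin1 was at 21.0, 8.99 and 27.4 CPM in wild-type replicates 1, 2 and 3, at 12.5, 2.57 and 9.45 CPM with PBS and at 13.7, 2.49 and 8.37 CPM with SN-011. Replicate 2 was the lowest of each group, and the 3 groups overlapped. The means were 19.1 ± 9.36 (WT), 8.19 ± 5.11 (PBS) and 8.17 ± 5.58 CPM (SN-011; SD, n = 3 each). Its highest library was 11.0 times its lowest, the widest range of the 9 members.

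Cidec (chr6:113424634-113435760, minus strand) encodes the protein that lets droplets fuse into a larger one. It was measured at 13.8, 5.96 and 32.5 CPM in wild type, at 13.7, 4.32 and 9.51 CPM with PBS and at 12.3, 4.29 and 7.12 CPM with SN-011. Wild-type replicate 3 stood well above the rest, and the remaining 8 libraries of all 3 groups shared a range of 4.29 to 13.8 CPM. Group means were 17.4 ± 13.6, 9.18 ± 4.70 and 7.90 ± 4.06 CPM.

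Plin4 (chr17:56100591-56109803, minus strand), a perilipin that coats small nascent droplets and is also made in muscle, varied less. Its levels were 11.9, 6.46 and 13.8 CPM in wild type, 11.2, 7.01 and 9.51 CPM with PBS and 10.3, 5.27 and 6.89 CPM with SN-011. All 3 groups overlapped, and the range from lowest to highest library was 2.62-fold. A small part of its exons, 0.294%, is shared with Hdgfl2 on the other strand.

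Lipe and Fabp4 handle stored fat. Lipe (chr7:25379527-25398710, minus strand), hormone-sensitive lipase, was at 37.2, 27.2 and 53.6 CPM in wild type, at 33.6, 21.3 and 31.8 CPM with PBS and at 25.2, 21.4 and 25.9 CPM with SN-011. Every SN-011 library lay below every wild-type library, whereas the PBS libraries overlapped both. The SN-011 group was the tightest, at 24.2 ± 2.42 CPM, against 39.3 ± 13.3 in wild type and 28.9 ± 6.68 with PBS. An antisense gene, 4732471J01Rik, shares 15.6% of the Lipe exons, and the strand setting of the counts is not given in the sources used here.

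Fabp4 (chr3:10204088-10208576, minus strand) carries fatty acids in adipocytes and in the other cells named above. Its values were 138.5, 98.5 and 205.8 CPM in wild type, 119.5, 76.8 and 113.1 CPM with PBS and 66.9, 94.4 and 98.6 CPM with SN-011. The groups overlapped, narrowly for SN-011 and wild type, where SN-011 replicate 3 at 98.6 CPM just exceeded wild-type replicate 2 at 98.5 CPM. Unlike most members, Fabp4 was lowest in SN-011 replicate 1, a library in which Retn was at its highest.

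The other 4 members encode secreted proteins. Adipoq (chr16:23146536-23158028, plus strand), which encodes the insulin-sensitising hormone adiponectin, was at 9.81, 5.24 and 19.5 CPM in wild type, at 7.49, 3.04 and 8.76 CPM with PBS and at 8.39, 2.26 and 4.81 CPM with SN-011. The highest wild-type value was 8.63 times the lowest SN-011 value, yet the groups overlapped, with means of 11.5 ± 7.28, 6.43 ± 3.01 and 5.15 ± 3.08 CPM.

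Cfd (chr10:79890853-79892655, plus strand), adipsin, was at 79.6, 37.3 and 122.5 CPM in wild type, at 54.3, 19.5 and 57.9 CPM with PBS and at 52.6, 12.2 and 43.6 CPM with SN-011. It followed the same order of replicates as Adipoq within wild type and within each treated group, and its 3 groups overlapped at means of 79.8 ± 42.6, 43.9 ± 21.2 and 36.1 ± 21.2 CPM. Retn (chr8:3655770-3660110, plus strand) encodes resistin, which in mice is an adipocyte hormone. It was at 7.45, 3.12 and 7.98 CPM in wild type, at 5.24, 2.45 and 7.46 CPM with PBS and at 9.86, 1.16 and 3.86 CPM with SN-011. Both its highest and its lowest library were SN-011 libraries, and the group means of 6.18 ± 2.67, 5.05 ± 2.51 and 4.96 ± 4.45 CPM lay well within each other's spread.

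Lep (chr6:29060220-29073877, plus strand) encodes leptin, the hormone by which fat mass signals to the brain. It was the scarcest member, with 22, 10 and 16 counts in wild type, 5, 2 and 2 with PBS and 5, 3 and 2 with SN-011. In CPM these were 1.04, 0.452 and 0.926, then 0.304, 0.117 and 0.124, then 0.283, 0.174 and 0.119. Wild-type libraries were all above all libraries of both Trex1-/- groups, and the Trex1-/- groups overlapped each other. Over the pooled libraries, the level with PBS was 0.229 of wild type (exact 95% interval 0.0988 to 0.472), that with SN-011 was 0.244 of wild type (0.110 to 0.489), and SN-011 against PBS was 1.07 (0.389 to 2.96). These intervals cover counting error only. An exact two-sided permutation test over libraries gave p = 0.1 for either Trex1-/- group against wild type, the smallest that 3 against 3 allows, and p = 0.9 between them.

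**Figure D1:**
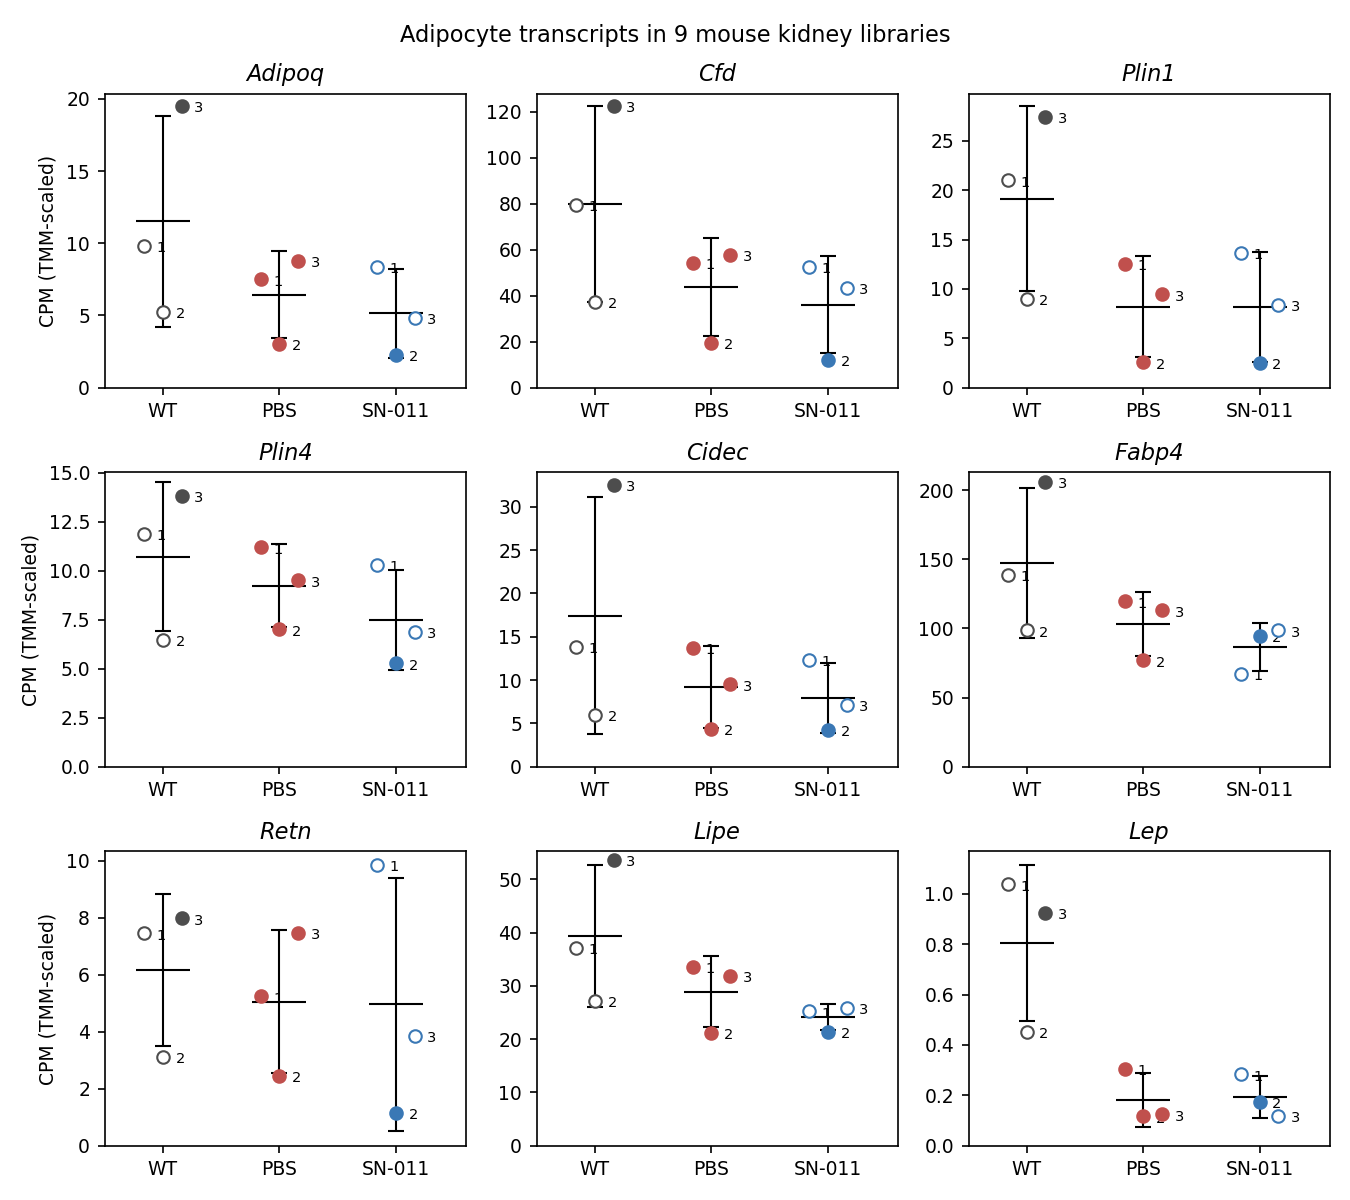
Level of each of the 9 adipocyte transcripts in CPM (vertical axes, from 0) in wild-type (WT), Trex1-/- PBS and Trex1-/- SN-011 kidneys, with 1 point per library labelled by replicate number, filled where Y-linked reads were present, and bars for the mean and SD of 3 libraries. Replicate 2 was the lowest point of the wild-type and PBS groups in all 9 panels, and for Lep the wild-type points lay above all others.

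The same libraries were high or low for most members. Wild-type replicate 3 was the highest of the 9 libraries for 7 members, and the exceptions were Lep, highest in wild-type replicate 1, and Retn. Replicates 1 and 3 of wild type were among the top 2 libraries for 8 and 9 members. At the other end, SN-011 replicate 2 was lowest for 6 members and PBS replicate 2 for Lipe and Lep. PBS replicate 2 was among the bottom 2 libraries for 8 members and SN-011 replicate 2 for 7.

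That order also held inside the groups. Wild-type replicate 2 was the lowest of its group for 9 of 9 members, PBS replicate 2 for 9 of 9 and SN-011 replicate 2 for 7 of 9. The labels do not say what the replicate numbers stand for, and whether a number marks a shared batch was not tested. The members are not independent of each other here, since they were measured in the same RNA, so these counts describe 9 libraries and are no test.

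The spread separated 3 members from the rest. Plin4, Fabp4 and Lipe ranged 2.52- to 3.08-fold from the lowest to the highest library, and the other 6 ranged 7.58- to 11.0-fold. Within groups, the SD of log2 CPM was 1.10 for Plin1, 1.06 for Retn, 0.97 for Cfd, 0.95 for Cidec and 0.89 for Adipoq. Among all 16646 genes tested, 98.0% to 99.1% had a smaller within-group SD than these 5 members. Among genes within 2-fold of the same level, the share was 98.4% to 99.5%. For Plin4, Fabp4 and Lipe, at SDs of 0.47, 0.41 and 0.36, the share at like level was 93.8%, 96.5% and 95.6%, so that these too lay toward the variable end.

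**Figure D2:**
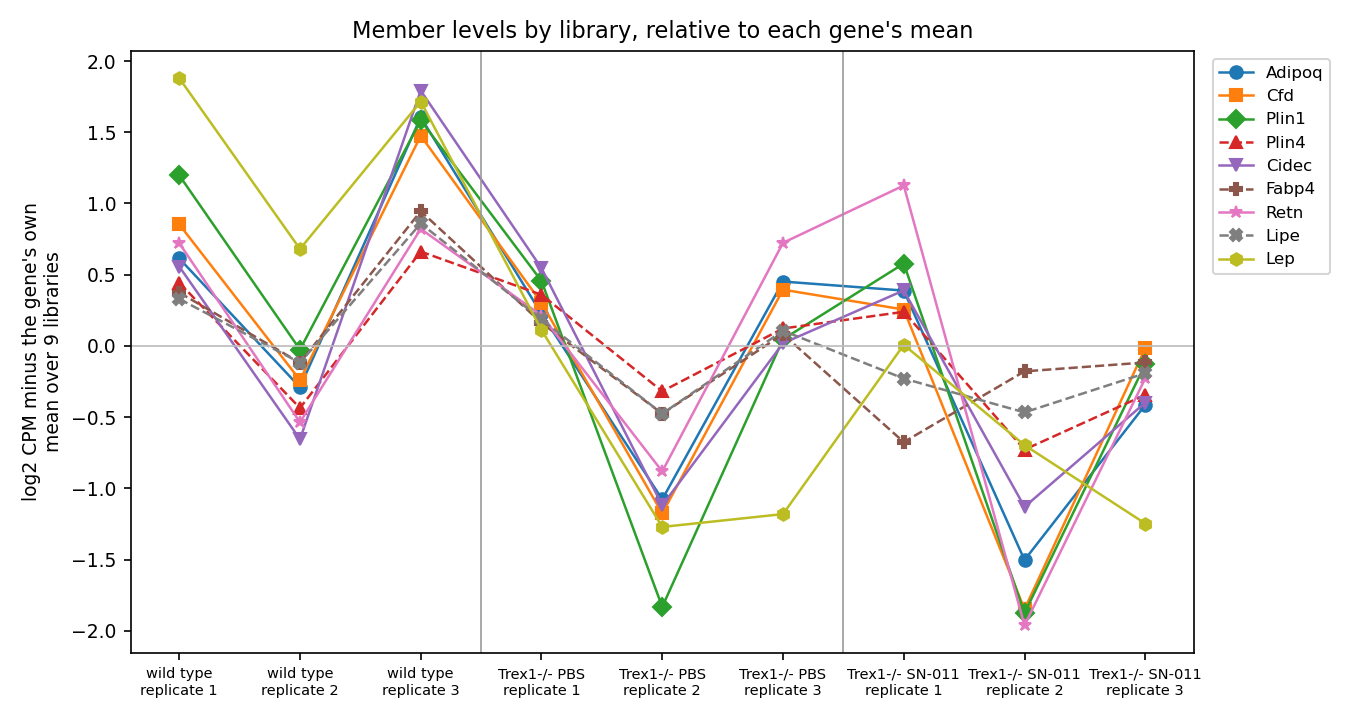
Log2 CPM of each member minus its own mean over the 9 libraries (vertical axis), by library (horizontal axis, grouped as wild type, PBS and SN-011), with dashed lines for Plin4, Fabp4 and Lipe. Most lines rise in wild-type replicate 3 and dip in PBS replicate 2 and SN-011 replicate 2, while Fabp4 is lowest in SN-011 replicate 1.

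Ratios inside a library show which members kept pace with Plin1. Cfd was at 3.79 to 7.59 times the CPM of Plin1, a 2.00-fold range over the 9 libraries, and Adipoq at 0.467 to 1.18 times, a 2.53-fold range. Cidec ranged 2.61-fold and Retn 3.28-fold relative to Plin1. These ranges are narrower than the 7.58-fold or wider ranges of the levels themselves.

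Fabp4 did not keep that proportion. It was at 4.90 times the CPM of Plin1 in SN-011 replicate 1 and at 37.9 times in SN-011 replicate 2, a 7.73-fold range. Lipe ranged 4.85-fold and Plin4 5.41-fold relative to Plin1, in both cases highest in PBS replicate 2 or SN-011 replicate 2, the libraries with the least Plin1. Lep, with 2 to 22 counts per library, ranged 5.30-fold relative to Plin1. How much of the Fabp4, Lipe and Plin4 signal came from cells other than adipocytes was not tested.

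The summed level of the 9 members was 320, 193 and 484 CPM in wild type, 258, 137 and 248 CPM with PBS and 200, 144 and 199 CPM with SN-011. Group means were 333 ± 146, 214 ± 67.0 and 181 ± 32.1 CPM, and the groups overlapped, wild-type replicate 2 falling below 2 libraries of each Trex1-/- group. Fabp4 made up 46.4% of the sum, Cfd 21.97% and Lipe 12.7%. Without Fabp4 the means were 185 ± 91.8, 111 ± 44.1 and 94.2 ± 42.0 CPM. In bulk tissue, fewer adipocytes and less of these RNAs in each adipocyte cannot be told apart.

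Split by Y-linked reads, the sum differed in opposite directions in wild type and with SN-011. In wild type, the 1 library with Y-linked reads was at 484 CPM and the 2 without averaged 257 CPM. In the SN-011 group, the 1 library with them was at 144 CPM and the 2 without averaged 199 CPM. The 3 PBS libraries, all with Y-linked reads, averaged 214 CPM. In wild type the library with Y-linked reads was above the mean of the others for 9 of 9 members, and with SN-011 it was below for all but Fabp4. Among libraries without Y-linked reads, only wild type and SN-011 could be compared, at 257 and 199 CPM with 2 libraries each. With a term for Y-linked reads in the edgeR fit, 0 of 8 members were called in any comparison. Of all 16646 genes, 198 were called in PBS against wild type, 0 in SN-011 against PBS and 656 in SN-011 against wild type.

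By member, with the library that had Y-linked reads first and the mean of those without second, Plin1 was at 27.4 and 14.985 CPM in wild type and at 2.49 and 11.0 CPM with SN-011. Cidec was at 32.5 and 9.89, then 4.29 and 9.71 CPM, and Plin4 at 13.8 and 9.17, then 5.27 and 8.60 CPM. Lipe was at 53.6 and 32.2, then 21.4 and 25.5 CPM, and Fabp4 at 205.8 and 118.5, then 94.4 and 82.8 CPM. These are single libraries against pairs and were not tested. Adipoq was at 19.5 and 7.52, then 2.26 and 6.60 CPM, and Cfd at 122.5 and 58.4, then 12.2 and 48.1 CPM. Retn was at 7.98 and 5.28, then 1.16 and 6.86 CPM, and Lep at 0.926 and 0.744, then 0.174 and 0.201 CPM. Lep was below wild type in both kinds of library with SN-011.

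The first comparison, Trex1-/- PBS against wild type, bears on the loss of the nuclease, but the PBS mice were also injected daily and no dosing of the wild-type mice is recorded, so that genotype and injection cannot be told apart. No member passed the test in edgeR's quasi-likelihood fit, with 0 of 8 at an adjusted p under 0.05, where 1.88% of the 16646 genes did. At an unadjusted p under 0.05 there were also 0 of 8, against 15.2% of genes. Lep fell below the low-count filter and was not in this fit. All 8 log2 fold changes were below 0, with a median of -0.68 against 0.00 for all genes, and since the members vary together these 8 are not 8 separate observations.

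Plin1 had the lowest estimate, -1.22 (SE 0.63; adjusted p = 0.389). Cidec was at -0.92 (SE 0.59; adjusted p = 0.504), Cfd at -0.86 (SE 0.56; adjusted p = 0.508) and Adipoq at -0.83 (SE 0.55; adjusted p = 0.513). Fabp4, with -0.52 (SE 0.26; adjusted p = 0.381), and Lipe, with -0.44 (SE 0.24; adjusted p = 0.408), had smaller estimates and smaller errors. Retn (-0.29, SE 0.64) and Plin4 (-0.21, SE 0.31) were within 1 SE of 0. Among the 8 tested members, 0 had all PBS libraries below wild type, where 12.3% of genes tested did, and Lep, which was not tested, did.

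SN-011 against PBS, both in Trex1-/- mice, asks what blocking STING changed. No member passed in edgeR at an adjusted p under 0.05, and 0% of genes did. At an unadjusted p under 0.05 there were 0 of 8 members and 11.4% of genes. The estimates ran from -0.32 for Adipoq to 0.00 for Plin1, with 7 of 8 below 0, a median of -0.25 and adjusted p from 0.720 to 0.999. Each was close to or below its own SE, which was 0.24 for Lipe, 0.57 for Adipoq and 0.64 for Plin1. In 0 of the 8 tested members, and not in Lep, did the SN-011 libraries all lie below the PBS libraries, where 8.41% of genes tested did.

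SN-011 against wild type again gave 0 of 8 members at an adjusted p under 0.05 in edgeR, with 1.28% of genes past it. The unadjusted p was under 0.05 for 2 of 8 members, Lipe and Fabp4, and for 18.0% of genes, so that the members' share of it is near the background. Lipe was at -0.70 (SE 0.24; adjusted p = 0.168) and Fabp4 at -0.77 (SE 0.26; adjusted p = 0.171). Groups were apart, with SN-011 lower, for 1 of the 8 tested members, Lipe, against 9.99% of genes tested, and also for Lep, which was not tested. Estimates for Plin1 (-1.22), Adipoq (-1.15), Cfd (-1.14) and Cidec (-1.13) were lower still, but their SEs were 0.56 to 0.63. The median over the 8 was -0.95, against -0.00 for all genes. The comparisons with wild type share its 3 libraries, so that a high wild-type library enters both.

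Single libraries moved the estimates against wild type in either direction. With wild-type replicate 3 left out, Cidec stood at -0.11 and Adipoq at -0.23 for PBS, and at -0.33 and -0.55 for SN-011. With wild-type replicate 2 left out, they stood at -1.33 and -1.19 for PBS, and at -1.55 and -1.50 for SN-011. Plin1 stood at -0.80 for PBS without PBS replicate 2 and at -1.68 without PBS replicate 1. For SN-011 Plin1 stood at -0.79 without SN-011 replicate 2 and at -1.81 without SN-011 replicate 1. The more abundant members moved with the same libraries. For PBS against wild type, Cfd stood at -0.42, Fabp4 at -0.20 and Lipe at -0.16 without wild-type replicate 3. They stood at -0.51, -0.35 and -0.27 without PBS replicate 2, and at -1.20, -0.74 and -0.65 without wild-type replicate 2. For SN-011 against wild type, they stood at -0.70, -0.46 and -0.42 without wild-type replicate 3. No member passed the test without any single library.

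**Figure D3:**
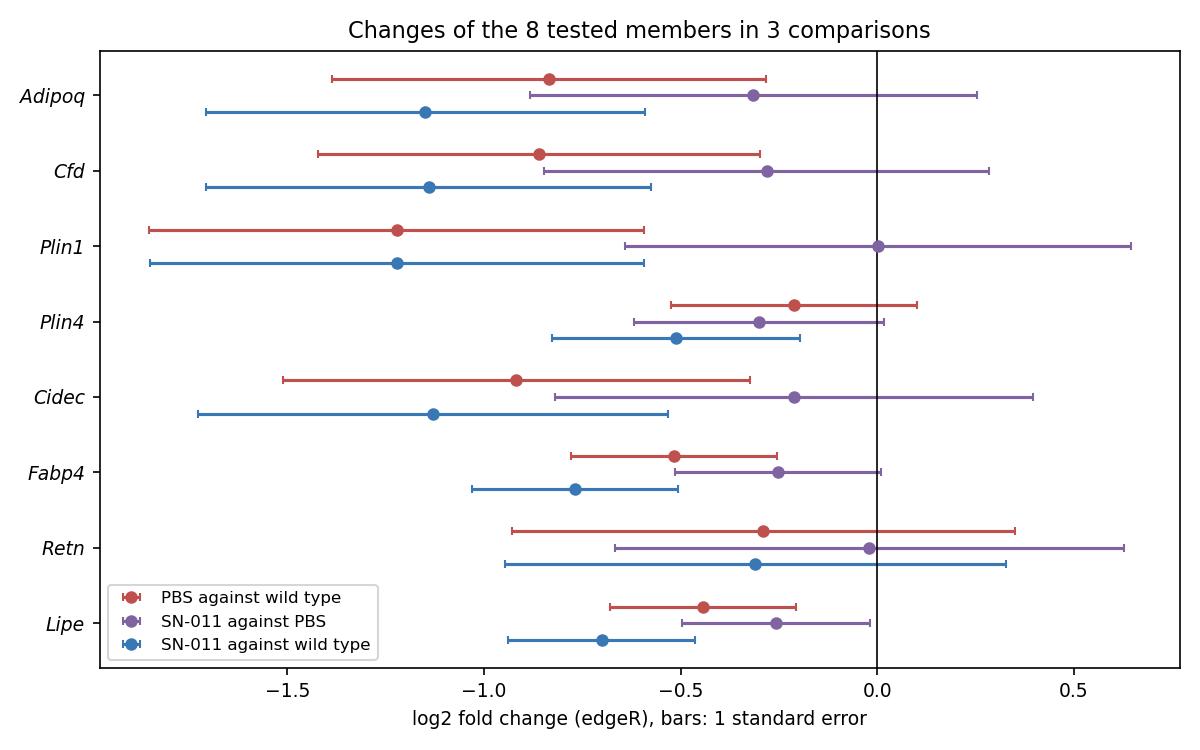
Log2 fold change from edgeR (horizontal axis) with bars of 1 standard error for the 8 members that passed the low-count filter, in PBS against wild type (red), SN-011 against PBS (purple) and SN-011 against wild type (blue). The SN-011 against PBS points lie between -0.32 and 0.00, and none of the 24 points passed an adjusted p of 0.05.

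Other white adipocyte genes did not pass the test either. Of 21 such genes, 0 were called in edgeR in any of the 3 comparisons, and at an unadjusted p under 0.05 there were 5 with estimates below 0 and 1 above for PBS against wild type (15.2% of all genes), 1 and 1 for SN-011 against PBS (11.4%), and 5 and 0 for SN-011 against wild type (18.0%). Their median log2 fold changes were -0.43, -0.11 and -0.56. The 4 most abundant, Pck1 at a mean of 2194 CPM, Scd1 at 930 CPM, Lpl at 541 CPM and Fasn at 312 CPM, are genes of glucose and fat synthesis or uptake that kidney cells also use. The summed level of the whole list was 4382 to 5248 CPM for wild-type kidneys, 4529 to 6590 with PBS and 3630 to 5748 with SN-011.

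A further list followed the fat cell's handling of triglyceride, and 1 of its 17 genes changed, in both comparisons with wild type, where 1.88% (PBS) and 1.28% (SN-011) of all genes did. Mgll, monoacylglycerol lipase, the enzyme that takes the last fatty acid off the glycerol, was at 127, 116 and 122 CPM in wild type, at 78.8, 67.6 and 70.9 CPM with PBS and at 61.3, 67.8 and 76.1 CPM with SN-011. Both Trex1-/- groups lay below wild type without overlap, at 72.4 ± 5.75 and 68.4 ± 7.41 against 122 ± 5.71 CPM. Libraries with and without Y-linked reads had means of 122 and 121 CPM in wild type and 67.8 and 68.7 CPM with SN-011, and with a term for Y-linked reads Mgll still passed against wild type (edgeR adjusted p = 0.0126 with PBS and 0.00209 with SN-011). Relative to wild type, Mgll fell by 0.75 on the log2 scale with PBS (SE 0.0996; edgeR adjusted p = 0.00297) and by 0.83 with SN-011 (SE 0.0998; edgeR adjusted p = 0.00517). Between the Trex1-/- groups its estimate was -0.08 (edgeR adjusted p = 0.788). The most abundant genes of that list, Pnpla2 (adipose triglyceride lipase, mean 186 CPM), Lpin1 (101 CPM) and Angptl4 (96.6 CPM), were not called.

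Receptors and partners of the secreted members come from kidney cells as well as from fat, and 0 of their genes were called. The 6 adipokine receptor genes were led by Adipor1 (mean 168 CPM), Cap1 (139 CPM), Adipor2 (119 CPM) and Lepr (10.9 CPM), and their sum held at 426 to 467 CPM over all 9 libraries. Of 6 partners of adipsin in the alternative complement pathway, C3 was at a mean of 79.9 CPM, Cd55 at 10.4 and Cfb at 10.1 CPM. C3, whose cleaved product binds the factor B that adipsin cuts, had an estimate of 0.58 in PBS against wild type (SE 0.13; edgeR adjusted p = 0.0614). The relatives of Fabp4 were led by Fabp3 (75.5 CPM), Fabp5 (9.36), Fabp7 (7.15) and Fabp1 (1.505), with Pmp2 at 0 in all libraries. Those of Retn were Retnla (2.16 CPM), Retnlg (0.580) and Retnlb, which was at 0 in all libraries.

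Brown fat genes were present as well, and none passed the test. Ucp1, the uncoupling protein that defines heat-making fat, was at 27.2, 6.41 and 12.8 CPM in wild type, at 4.20, 0.117 and 2.18 CPM with PBS and at 5.95, 1.51 and 3.62 CPM with SN-011. All wild-type libraries lay above all Trex1-/- libraries, with 12.8 and 16.8 CPM as the wild-type means with and without Y-linked reads and 1.51 and 4.79 CPM as those with SN-011. The log2 fold change was -2.84 with PBS (SE 0.80; edgeR adjusted p = 0.125) and -2.06 with SN-011 (SE 0.76; edgeR adjusted p = 0.194), both against wild type.

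Cidea, a droplet protein of brown fat named here after its values were seen, was at 8.96, 2.85 and 10.9 CPM in wild type, at 2.68, 0 and 1.80 CPM with PBS and at 3.63, 0.696 and 1.84 CPM with SN-011. Of the 12 brown adipocyte genes 10 were tested, 0 were called in any comparison, and the median log2 fold changes were -1.53, 0.36 and -0.97. At an unadjusted p under 0.05 there were 7 of 10 for PBS against wild type (15.2% of all genes) and 5 of 10 for SN-011 against wild type (18.0%), all with estimates below 0. Every library of the Trex1-/- group was below wild type for 4 of these 10 with PBS and for 3 with SN-011, against 12.3% and 9.99% of genes tested. Ppargc1a (mean 108 CPM), Prdm16 (31.1 CPM) and Cox7a1 (5.01 CPM) are also used outside fat, and Zic1 was at 0 in all libraries.

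Relative to Plin1 in the same library, Ucp1 was at 1.29, 0.714 and 0.468 in wild type, at 0.335, 0.0455 and 0.230 with PBS and at 0.436, 0.605 and 0.433 with SN-011. The range of 28.5-fold rests on PBS replicate 2, where Ucp1 had 2 counts, and the next lowest ratio was 0.230. It is therefore not ranked against the ranges of the members. The ratio in 2 of 3 SN-011 libraries was below, and in replicate 2 above, the lowest wild-type ratio.

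**Figure D4:**
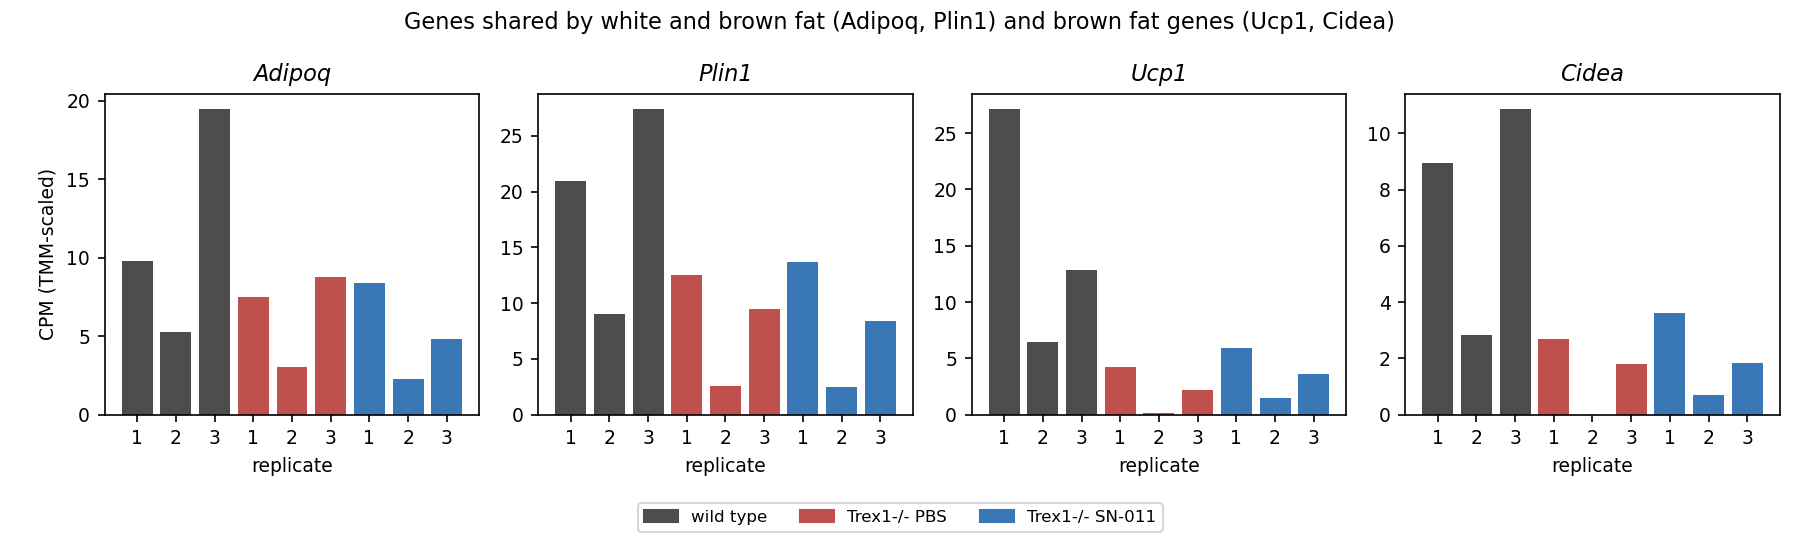
Levels in CPM (bars, from 0) of Adipoq and Plin1, which white and brown adipocytes both use, and of the brown fat genes Ucp1 and Cidea in the 9 libraries, by replicate and group (grey wild type, red PBS, blue SN-011). The 3 wild-type bars of Ucp1, 6.41 to 27.2 CPM, are above all 6 Trex1-/- bars, whereas those of Adipoq and Plin1 overlap them.

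Markers of other tissue that can come along with a kidney gave different values. Of 12 adrenal genes, 9 had at most 3 counts in every library, and the enzymes Cyp11b2 and Th were at 0 throughout. Fdx1 (98.0 CPM), which serves mitochondria of many tissues, and Star (5.76 CPM) were the highest, and Mc2r (0.399 CPM) and Cyp11a1 (0.0497 CPM) followed. Skeletal muscle genes summed to at most 5.66 CPM, with Myh4 at 0 in all libraries. Myh1, a fast myosin, had 95 and 66 counts in wild-type replicates 1 and 2 and at most 1 elsewhere, and the other leading genes of the list were Mylpf at a mean of 1.11 CPM, Tnnt3 at 0.0684 and Acta1 at 0.0177.

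The sum of urothelium genes was between 20.6 and 27.2 CPM in wild type, between 14.0 and 20.8 with PBS and between 13.6 and 23.2 with SN-011. They were led by Upk1a at a mean of 6.02 CPM, Upk1b at 4.41, Upk3a at 4.12 and Krt5 at 2.31, and 0 of 6 were called in any comparison. At an unadjusted p under 0.05, 2 of 6 had estimates below 0 in PBS against wild type (15.2% of all genes). There were 0 in SN-011 against PBS (11.4%) and 1 below 0 in SN-011 against wild type (18.0%). Their median log2 fold changes were -0.46, 0.20 and -0.30 in that order. Genes of adipose progenitors and mesothelium were led by Ly6a (671 CPM), Dpp4 (86.4), Pdgfra (43.6) and Cd34 (40.2), and 0 of the 10 tested were called. Ly6a, which is also an interferon-responsive antigen, carried most of their sum, and without it the other 10 genes summed to 213 to 229 CPM for wild-type kidneys, to 199 to 221 CPM for PBS and to 191 to 219 CPM for SN-011. The median log2 fold changes of the 10 tested genes were -0.13 with PBS and -0.25 with SN-011 against wild type, and -0.16 between the Trex1-/- groups.

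Macrophages also express Fabp4 and Cfd. Of 8 macrophage genes, C1qa and C1qb, subunits of complement C1q, rose in PBS against wild type on the log2 scale, by 0.94 (SE 0.16; edgeR adjusted p = 0.0133) and 0.79 (SE 0.17; edgeR adjusted p = 0.0483), where 1.88% of all genes were called. With and without Y-linked reads, means for C1qa were 30.5 and 24.9 CPM in wild type and 42.4 and 35.8 CPM with SN-011, and those for C1qb were 31.8 and 24.4, then 46.0 and 35.2 CPM. The PBS means, all with Y-linked reads, were 51.2 and 46.4 CPM. With a term for Y-linked reads in the edgeR fit neither gene passed in PBS against wild type, C1qa at 0.77 (adjusted p = 0.0677) and C1qb at 0.54 (adjusted p = 0.177). In SN-011 against wild type C1qb stood at 0.53 in both edgeR fits and passed with that term (adjusted p = 0.0473) but not without it (adjusted p = 0.150). At an unadjusted p under 0.05, 6 of the 8 macrophage genes had estimates above 0 in PBS against wild type (15.2% of all genes), 4 below 0 in SN-011 against PBS (11.4%) and 2 above 0 in SN-011 against wild type (18.0%). Csf1r (mean 74.9 CPM) and Lyz2 (42.1 CPM) were not called, and the sum of the list was 160 to 188 CPM in wild type, 257 to 284 with PBS and 148 to 237 with SN-011. The lymphocyte genes, led by Cd8a (3.11 CPM), Cd3e (1.75), Cd3d (1.24) and Cd79a (0.531), had 0 of 4 called and summed to 3.16 to 5.67, 7.47 to 13.7 and 3.46 to 9.80 CPM. At an unadjusted p under 0.05, 3 of those 4 had estimates above 0 in PBS against wild type, 1 below 0 in SN-011 against PBS, and 1 above and 1 below 0 in SN-011 against wild type, beside the same shares of all genes. Of the 10 kidney cell genes 0 were called.

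The genes whose pattern was most like the summed members were found by the root mean square (RMS) difference of centred log2 CPM over the 9 libraries, among 14834 genes of at least 1 CPM. A flat profile gave an RMS of 0.53. Among the 10 closest were Aoc3 (0.23) and, at 0.25 to 0.29, Gm5805, B3galt2, Fkbp10, 9930014A18Rik, Gm12918, Adam33, Hcar1 and Hspb2. Aoc3 is an amine oxidase abundant on fat cells and smooth muscle, and Hcar1 is the lactate receptor of adipocytes. Of the tested members, Lipe was nearest to the sum at 0.14, and Plin1 lay farthest at 0.66.

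The 5 tested members of largest within-group SD gave another neighbourhood. With the mean profile of Adipoq, Cfd, Plin1, Cidec and Retn, a choice made after seeing the data, the 10 closest genes included Car3 (RMS 0.29), Mrap (0.40), Adig (0.42) and Nat8l (0.43), then Hp, Slc36a2, Adrb3, Thrsp and Prkar2b (0.44 to 0.47), where a flat profile gave 0.91. Of the 10 closest, 5 (Car3, Mrap, Adig, Adrb3 and Thrsp) are on the list of other white adipocyte genes, against 1 of 10 (Aoc3) for the summed profile. Car3, carbonic anhydrase 3, was at 69.9, 46.2 and 149 CPM in wild type, at 53.7, 23.7 and 46.7 CPM with PBS and at 70.9, 23.2 and 34.3 CPM with SN-011.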

How the data were processed

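Total RNA of kidneys was sequenced after polyA selection with paired reads of a strand-specific library. The authors trimmed reads with Trimmomatic, aligned them with HISAT2 at default settings and deposited raw counts of uniquely mapped pairs per Ensembl gene from featureCounts, on mm10 per the submitters' processing notes. Tool versions, annotation and strand setting are not given in the sources used here. Pairs that map equally well to a paralog were left out by the authors.

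Symbols and positions came from GENCODE vM21 (GRCm38), which matched 54409 of 54532 identifiers. Counts were fitted in R 4.3.3 with edgeR 4.0.16: filterByExpr (minimum count 10, total 15; 16646 genes), TMM scaling, all 9 libraries in 1 quasi-likelihood model with a mean per group, and Benjamini-Hochberg adjustment over all genes at 0.05. CPM use TMM-scaled library sizes, log2 CPM a prior count of 2, and RPKM the union of annotated exons. The fit was also run on simulated counts with the same dispersion for every gene. That run does not show how well changes in genes as variable as these members are detected. The members and lists were chosen with earlier results of these data known. For each further list the 4 genes of highest mean CPM and any called gene are named, plus 10 genes of like pattern, except that a few items are not reported here. Genes named outside this rule were chosen after their values were seen.

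Alternatives were DESeq2 1.42.0 size factors or Wald test, upper-quartile factors, no filter or a mean of at least 50 counts, edgeR's exact test, limma-voom (limma 3.58.1), only the 6 libraries compared, a replicate block, a term for Y-linked reads, and each library left out, 19 settings in all. Replicates are separate libraries by label. The study gives 3 per group for the Trex1-/- kidneys, and the labels do not say which animals the libraries came from. In the wild-type and SN-011 groups, libraries with Y-linked reads came from other animals than those without. Whether libraries alike in these reads came from separate animals is not recorded. The p-values measure the spread between these samples, part of which may be technical. Within groups, replicates differed by 7.76 to 76.0 times the counting variance, so no 2 files agreed within sampling noise. These differences do not show that libraries alike in Y-linked reads came from different animals.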

Additional observations from a re-analysis of the deposited data

How the results depend on the processing

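No member passed the test under the DESeq2 size factors, upper-quartile factors, the mean count filter, the exact test, limma-voom, the 6-library fit or the Y-linked term in any comparison. Whichever library was left out, 0 members were called in all 3 comparisons. Calls appeared in the other settings. For SN-011 against wild type, 2 members were called with no filter, where 607 of 30892 genes were (Fabp4, -0.78, adjusted p = 0.0263; Lipe, -0.71, 0.0344) and 1 by DESeq2's Wald test, where 806 of 16646 genes were (Fabp4, -0.77, 0.0472). The replicate block called 1 member of PBS against wild type (Plin1, -1.36, adjusted p = 0.0312) and 2 in SN-011 against wild type (Cfd, -1.22, 0.0222; Plin1, -1.37, 0.0396). Deviations of same-numbered libraries correlated at -0.294 to 0.242 over 9 pairs, 5 of them over 0.1, against 3 of 18 differently numbered pairs. These deviations still carry the split by Y-linked reads. Wild-type replicate 3 and SN-011 replicate 2, both with such reads, were at 0.380. SN-011 replicate 2 and wild-type replicate 2, which differ in them, were at -0.294. The correlations therefore cannot decide whether a number marks a shared batch. No label ties the numbers to litters or days, so the block is not treated as a pairing. With the block the genes called numbered 312, 0 and 231 against 313, 0 and 213. The cause of these changes was not tested.

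Some signs changed, most of them in SN-011 against PBS, and none of these estimates passed the test. With the Y-linked term, Retn in PBS against wild type was 0.028, and in SN-011 against PBS Plin1 was -0.16, Cidec 0.27 and Fabp4 0.090. Plin1 in SN-011 against PBS was also below 0 with no filter (-0.011), the exact test (-0.0020), limma-voom (-0.011), the 6 libraries (-0.00045) and the replicate block (-0.015). With a library left out, PBS against wild type ranged from -0.48 to 0.0092 for Plin4 and from -0.69 to 0.036 for Retn, and SN-011 against wild type from -1.30 to 0.16 for Retn. For SN-011 against PBS the ranges were -0.86 to 0.040 (Adipoq), -0.65 to 0.13 (Cfd), -0.59 to 0.46 (Plin1), -0.68 to 0.20 (Cidec) and -1.01 to 0.45 (Retn). Summed levels then ran from 257 to 402 CPM in wild type, 192 to 253 with PBS and 171 to 199 with SN-011. Without Fabp4 they were 185, 111 and 94.2 CPM.

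Lep entered 8 of the fits. With no filter, its edgeR adjusted p against wild type was 0.0840 (PBS) and 0.0955 (SN-011). In the other fits it passed the low-count filter only through wild-type libraries, where it was high. Their p-values against wild type are therefore not given. Counts over all genes, in the order PBS against wild type, SN-011 against PBS and SN-011 against wild type, were 707, 127 and 607 with no filter, 726, 183 and 806 by DESeq2, 683, 127 and 601 by the exact test, 751, 0 and 43 with 6 libraries, and 198, 0 and 656 with the Y-linked term. Leaving out a library gave 153 (without PBS replicate 2) to 774 (without SN-011 replicate 2), 0 to 519 (without SN-011 replicate 2) and 38 (without wild-type replicate 1) to 376 (without SN-011 replicate 2). Lep had 2 to 22 counts per library, and its counting interval for SN-011 against PBS, 0.389 to 2.96, shows how little that depth resolves.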
